A study of Mus musculus with 23 samples.

Results

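Macrophage and C1q genes were followed as a set of 10 listed genes in mouse quadriceps muscle: *Ptprc*, *Adgre1*, *Csf1r*, *Cd68*, *Lyz2*, *Mrc1*, *Cd163*, *C1qa*, *C1qb* and *C1qc*. The set was defined by gene symbol, matched to the Ensembl IDs of the count table, and it covers 10 of 55573 gene IDs and 10 of the 13049 genes that were abundant enough to be tested. RNA-sequencing was done on whole quadriceps of male and female C57BL/6J mice (strain C57Bl6 in the sample labels) of 8 to 10 weeks of age, which carried a slow-release pellet under the skin for 14 days. Corticosterone pellets (CORT) held 50 mg corticosterone and 50 mg cholesterol, vehicle pellets (VEH) held cholesterol without the hormone, and all mice were fasted for 5 h before they were killed. The groups were 6 vehicle-treated females, 5 corticosterone-treated females, 6 vehicle-treated males and 6 corticosterone-treated males, all of 1 strain and with no other treatment listed. Corticosterone is the main glucocorticoid of the mouse and acts through the glucocorticoid receptor, and the comparisons below ask whether it changed these transcripts in each sex and whether the sexes differed.

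Macrophages take up and digest dead cells and debris, and in skeletal muscle they sit between the fibers, around vessels and in the fat and connective tissue of the muscle. They depend on the growth factor receptor *Csf1r*, and resident macrophages of healthy tissues carry scavenger receptors such as *Mrc1* and *Cd163*. C1q is the recognition molecule of the classical complement pathway. It is built of A, B and C chains encoded by *C1qa*, *C1qb* and *C1qc*, binds immune complexes and dying cells, and in most tissues is made largely by macrophages. In these bulk samples fewer macrophages and less RNA per macrophage cannot be told apart.

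*C1qb*, *C1qc* and *C1qa* lie in this order within 18.7 kb of chromosome 4 (GRCm38, chr4:136880129-136898803), all on the minus strand. *Ptprc* is on chromosome 1 (chr1:138062861-138175708, minus strand), *Mrc1* on chromosome 2 (chr2:14229392-14332057, plus strand) and *Cd163* on chromosome 6 (chr6:124304656-124330527, plus strand). *Lyz2* is on chromosome 10 (chr10:117277331-117282321, minus strand), *Cd68* on chromosome 11 (chr11:69664213-69666153, minus strand) and *Adgre1* on chromosome 17 (chr17:57358691-57483527, plus strand). RefSeq promoter windows (GRCm38.p6) were at hand for 7 of the 10 genes. Those of *C1qb* and *C1qc*, the pair of C1q genes with a window, and of the scavenger receptors *Mrc1* and *Cd163*, whose values separated below, are shown. The *C1qb* window is chr4:136886201-136886450 and the *C1qc* window chr4:136893066-136893164, both on the minus strand, and the *Mrc1* window is chr2:14229164-14229391 and the *Cd163* window chr6:124304401-124304650, both on the plus strand. Each sequence ends next to the transcript start, with transcribed bases left out, and capitals mark AGGAAGT or its reverse complement ACTTCCT, a core bound by ETS factors such as the macrophage regulator PU.1, and AGAACA or its reverse complement TGTTCT, a hexamer of the glucocorticoid receptor's binding site.
C1qb: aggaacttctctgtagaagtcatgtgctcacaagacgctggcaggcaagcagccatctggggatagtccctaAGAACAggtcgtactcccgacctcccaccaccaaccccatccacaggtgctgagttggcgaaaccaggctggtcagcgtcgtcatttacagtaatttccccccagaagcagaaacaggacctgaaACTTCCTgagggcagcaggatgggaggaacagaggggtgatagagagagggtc
C1qc: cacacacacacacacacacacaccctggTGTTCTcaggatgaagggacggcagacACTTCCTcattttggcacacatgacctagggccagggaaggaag
Mrc1: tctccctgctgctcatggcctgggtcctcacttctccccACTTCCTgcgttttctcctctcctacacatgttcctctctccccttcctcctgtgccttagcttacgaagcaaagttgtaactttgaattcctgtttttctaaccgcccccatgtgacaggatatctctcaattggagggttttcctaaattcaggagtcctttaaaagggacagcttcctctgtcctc
Cd163: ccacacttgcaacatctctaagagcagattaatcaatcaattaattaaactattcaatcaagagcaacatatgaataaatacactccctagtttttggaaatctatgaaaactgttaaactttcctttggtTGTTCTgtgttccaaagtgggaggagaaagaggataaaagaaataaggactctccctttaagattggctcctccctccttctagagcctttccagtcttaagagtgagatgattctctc
*C1qb* and *C1qc* each held 1 ETS core and 1 hexamer, *Mrc1* an ETS core and *Cd163* a hexamer. Over the 7 genes, 5 had an ETS core within the 250 bases before the start, against 7.69% of 32851 promoter windows of that length, and 4 had a hexamer, against 16.1%. These counts took in all 250 bases. For *Ptprc* the hexamer did not lie within the 70 bases of its window that precede an annotated exon. The full palindromic glucocorticoid response element is the hexamer followed by its reverse complement after a spacer of 3 bases. For the 7 genes it was counted only in the bases that precede an annotated exon, and none held it there. Over all 250 bases 0.00913% of windows held it, so the 2 values rest on unlike lengths. Both strands were searched, and the motifs do not overlap in the sequences shown. These matches are descriptions of letters, and the motifs were chosen with the sequences in view.

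The libraries were even in depth, with 20904150 to 21984477 read pairs counted on genes per mouse. Fiber transcripts dominated, led by the actin *Acta1* with a mean of 37900 CPM (counts per gene scaled to a fixed library total with edgeR's TMM factors) and the fast myosin *Myh4* with 35500 CPM. All 10 genes were counted in every mouse, with 7 to 140 read pairs for *Ptprc*, the lowest, and up to 4868 for *Lyz2*, the highest. The libraries of 5 mice stood apart by the liver transcript *Alb*, with 822 CPM in F6, 1880 in F10, 1110 in M9, 1830 in M8 and 1080 in M12 against 9.76 to 224 in the other mice. Summed over 6 adipocyte markers, CPM ran from 57.5 to 1710 in vehicle-treated females, 36.7 to 4150 in corticosterone-treated females, 30.3 to 550 in vehicle-treated males and 68.5 to 432 in corticosterone-treated males. Each mouse is 1 library, so the p-values measure the spread between these mice.

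Per kilobase of coding transcript, *Lyz2* was the most abundant of the 10 genes, with 61.4 ± 26.8 CPM per kb (SD over 23 mice). The C1q chains followed, *C1qa* with 22.3 ± 12.3, *C1qb* with 17.9 ± 9.81 and *C1qc* with 15.1 ± 8.07 CPM per kb, and these 3 lay within each other's spread. *Csf1r* (4.03 ± 1.65 CPM per kb), *Cd68* (3.97 ± 2.29), *Cd163* (3.79 ± 2.16) and *Mrc1* (2.95 ± 1.12) formed a lower group whose neighbours again lay within their spread. *Adgre1* with 1.59 ± 0.913 and *Ptprc* with 0.435 ± 0.264 CPM per kb were the lowest.

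**Figure D1:**
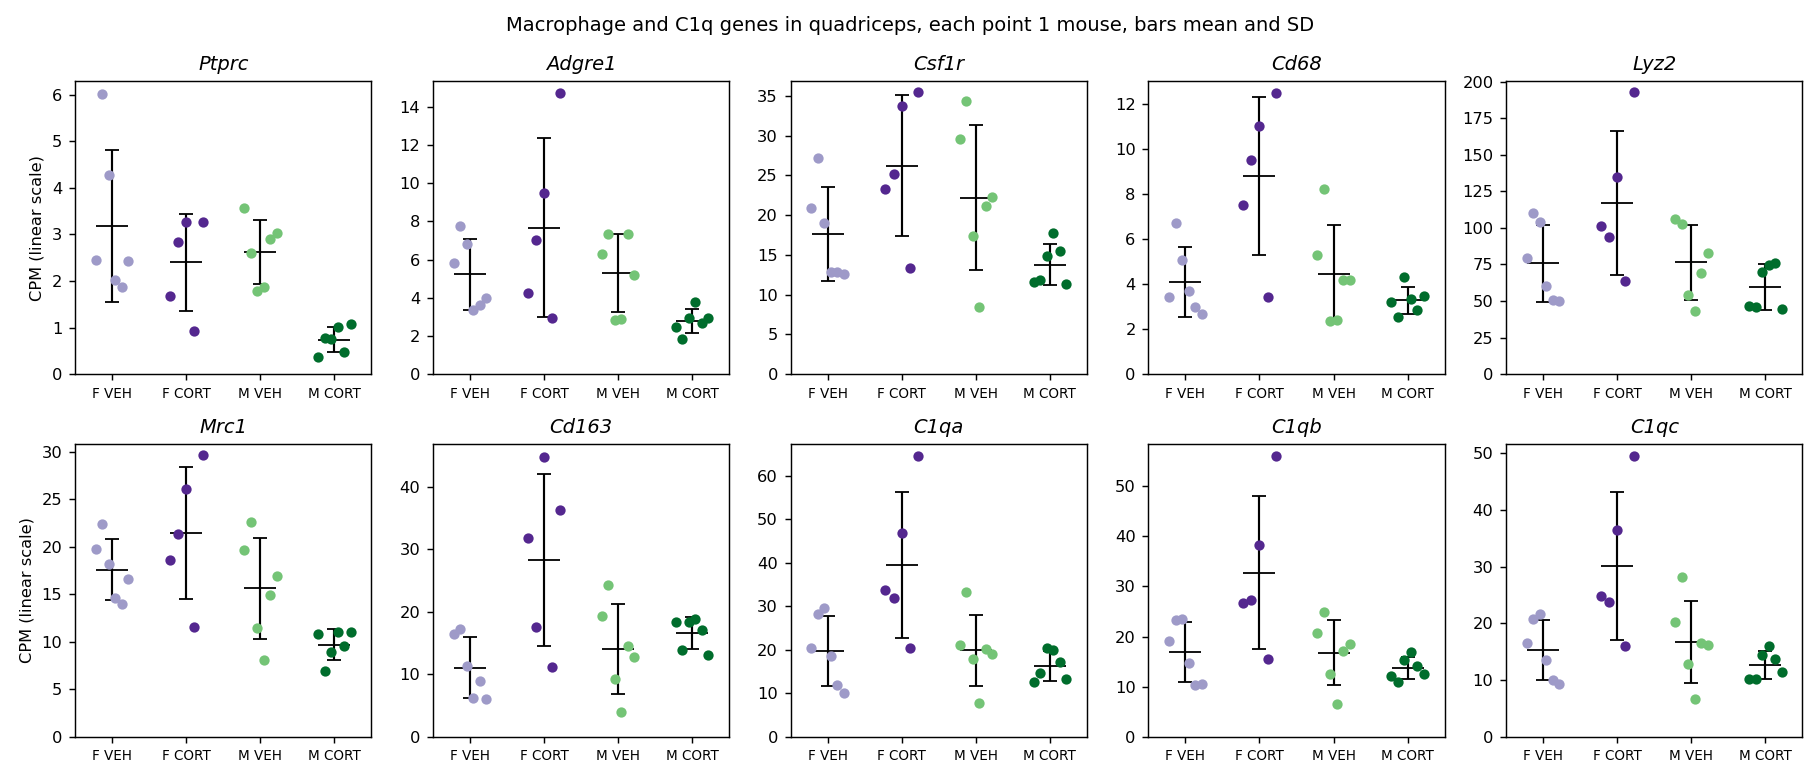
CPM (linear scale) of each of the 10 genes in each of the 23 mice, by group: F for females, M for males, VEH for vehicle and CORT for corticosterone. Each point is 1 mouse and the bars give the mean and SD. For *Ptprc* all 6 corticosterone-treated males lie below all 6 vehicle-treated males, and the corticosterone-treated females spread widely for the other genes, with mouse F8 lowest for 10 of the 10 genes in that group.

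Corticosterone lowered *Ptprc* in males, and the other 9 genes did not pass the test there. *Ptprc* encodes the receptor phosphatase carried by all nucleated blood-derived cells and so marks leukocytes in general. In vehicle-treated males it ranged from 1.79 to 3.56 CPM with a median of 2.75, and in corticosterone-treated males from 0.377 to 1.07 CPM with a median of 0.762. All corticosterone-treated males were below all vehicle-treated males, a separation in the lower direction that 11.1% of the tested genes had. The log2 fold change was -1.81 (SE 0.35, adjusted p = 0.000339, edgeR quasi-likelihood test, threshold 0.01). In females the values overlapped, with 1.86 to 6.01 CPM and a median of 2.43 under vehicle and 1.68, 2.84, 3.27, 0.935 and 3.26 CPM in corticosterone-treated mice F2, F4, F6, F8 and F10. Their fitted difference was -0.40 on the log2 scale (SE 0.34, adjusted p = 0.402). The count of 1 of 10 genes called lower in males stands against 13.1% of all tested genes called lower and 26.3% called in either direction. At an adjusted p under 0.05, 3 of the 10 (*Ptprc*, *Adgre1* and *Mrc1*) were lower, against 39.8% of all genes in either direction, and 4 had an unadjusted p under 0.05, against 48.2%. DESeq2 called *Ptprc* and *Mrc1*, and 30.6% of all genes. The male median log2 fold change of the 10 genes was -0.419, against -0.0206 for all genes tested, and 9 of the 10 fitted values were negative.

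*Adgre1* and *Csf1r*, the receptors by which macrophages are usually recognised, had lower means in corticosterone-treated than in vehicle-treated males and higher means in corticosterone-treated than in vehicle-treated females, and none of these differences passed the test. *Adgre1*, an adhesion receptor used as the standard surface marker of mouse macrophages, ranged from 2.81 to 7.33 CPM (median 5.72) in vehicle-treated males and from 1.82 to 3.79 CPM (median 2.83) in corticosterone-treated males. All 6 corticosterone-treated males were below the vehicle mean, yet the ranges overlapped, and the log2 fold change was -0.92 (SE 0.34, adjusted p = 0.0344). Vehicle-treated females ranged from 3.36 to 7.76 CPM (median 4.89), and the corticosterone-treated females F2, F4, F6, F8 and F10 had 4.23, 7.03, 9.46, 2.95 and 14.7 CPM. Mouse F10 was highest and F8 below every vehicle-treated female, and the log2 fold change was 0.56 (SE 0.34, adjusted p = 0.242). *Csf1r*, the receptor for the growth factors that macrophages need to survive (chr18:61100598-61132149, plus strand), averaged 22.2 ± 9.13 CPM (SD, n = 6) in vehicle-treated and 13.8 ± 2.58 CPM (n = 6) in corticosterone-treated males. In females it averaged 17.6 ± 5.92 CPM (n = 6) under vehicle and 26.2 ± 8.9 CPM (n = 5) under corticosterone. Neither *Csf1r* difference exceeded the spread by the test, with an adjusted p of 0.0508 in males and 0.138 in females.

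*Cd68* and *Lyz2* report on the digestive side of the macrophage. *Cd68*, a glycoprotein of late endosomes and lysosomes, ranged from 2.65 to 6.73 CPM with a median of 3.55 in vehicle-treated females. In corticosterone-treated females F2, F4, F6, F8 and F10 it stood at 7.5, 9.49, 11, 3.44 and 12.5 CPM. Mouse F8 lay among the vehicle-treated females and the other 4 above all of them, and the log2 fold change was 1.1 (SE 0.32, adjusted p = 0.0134), short of the threshold. In males *Cd68* had a mean of 4.43 ± 2.17 CPM (n = 6) under vehicle and 3.28 ± 0.604 CPM (n = 6) under corticosterone (adjusted p = 0.277). *Lyz2*, which encodes the lysozyme of macrophages and neutrophils that cleaves bacterial cell walls, averaged 76 ± 26.4 CPM in vehicle-treated and 117 ± 49.4 CPM in corticosterone-treated females (adjusted p = 0.103), and 76.4 ± 25.6 against 59.5 ± 15.5 CPM in males (adjusted p = 0.302). Its close paralog *Lyz1*, with which it can share reads, was lower under corticosterone in both sexes, with a log2 fold change of -2.5 in males (adjusted p = 1.48e-05) and -2.24 in females (adjusted p = 0.000253). *Lyz1* averaged 7.51 CPM in vehicle-treated and 1.58 CPM in corticosterone-treated females, and *Lyz1* is named here because reads common to near-identical copies may be left out of the counts of both.

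The scavenger receptors *Mrc1* and *Cd163* differed in pattern. *Mrc1*, the mannose receptor, takes up glycoproteins with terminal mannose. In males it ranged from 8.13 to 22.6 CPM (median 15.9) under vehicle and from 6.96 to 11 CPM (median 10.2) under corticosterone. All 6 corticosterone-treated males were below the vehicle mean while the ranges overlapped, and the log2 fold change was -0.68 (SE 0.22, adjusted p = 0.0173). In females *Mrc1* ranged from 14 to 22.4 CPM under vehicle, and corticosterone-treated mice F2, F4, F6, F8 and F10 had 18.6, 21.3, 26.1, 11.6 and 29.7 CPM (adjusted p = 0.373). *Cd163*, the receptor that clears complexes of haemoglobin and haptoglobin, was the only member with a positive male difference. It ranged from 3.97 to 24.3 CPM (median 13.7) in vehicle-treated and from 13 to 18.9 CPM (median 17.7) in corticosterone-treated males, with the second range inside the first, and the log2 fold change was 0.24 (SE 0.36, adjusted p = 0.617). In vehicle-treated females *Cd163* ranged from 6.04 to 17.3 CPM (median 10.1), and corticosterone-treated females F2, F4, F6, F8 and F10 had 31.7, 17.6, 44.8, 11.2 and 36.3 CPM. All 5 were above the vehicle mean and 4 above every vehicle-treated female, and the log2 fold change of 1.36 (SE 0.38) had an adjusted p of 0.0108, just short of the threshold.

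The 3 C1q chains had higher means in corticosterone-treated females, with fitted folds near a doubling, but did not pass the threshold of 0.01. *C1qa* ranged from 10.1 to 29.5 CPM with a median of 19.4 in vehicle-treated females and stood at 33.8, 32, 46.8, 20.4 and 64.5 CPM in corticosterone-treated F2, F4, F6, F8 and F10. *C1qb* ranged from 10.3 to 23.5 CPM under vehicle and stood at 26.6, 27.3, 38.2, 15.5 and 56 CPM in the same 5 mice. *C1qc* ranged from 9.31 to 21.7 CPM under vehicle and stood at 24.8, 23.8, 36.4, 16 and 49.5 CPM. For each chain 4 of 5 corticosterone-treated females lay above every vehicle-treated female, with F8 among the vehicle values. The log2 fold changes were 1.0 for *C1qa* (SE 0.32, adjusted p = 0.0225), 0.95 for *C1qb* (SE 0.30, adjusted p = 0.0251) and 0.98 for *C1qc* (SE 0.30, adjusted p = 0.0209). Males overlapped for every chain. *C1qa* averaged 19.9 ± 8.17 CPM under vehicle and 16.3 ± 3.4 CPM under corticosterone (n = 6 each), and the adjusted p of the 3 chains in males was 0.475, 0.457 and 0.285.

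In females the edgeR test called 0 of the 10 genes, against 13.4% of all tested genes called in either direction and 7.4% called higher. An unadjusted p under 0.05 was reached by 6 of the 10, against 38.6% of all genes, and an adjusted p under 0.05 by 5, all higher, against 26.7% of all genes in either direction and 14.9% higher. DESeq2 called 4 in females (*Cd68*, *Cd163*, *C1qa* and *C1qc*) and limma-voom with quality weights called 2 (*Cd68* and *Cd163*), where each tool called 18.8% of all genes. The female median log2 fold change was 0.787, against 0.0353 for all genes, and 9 of 10 fitted values were positive. Without mouse F8 the edgeR test called 5 (*Cd68*, *Cd163* and the 3 C1q genes, with 18.1% of all genes called). It called 2 without F3 (14.9% of all genes) or without M3 (12.9%), and 1 without F4 (17.3%) or without M7 (13.2%). The fitted female difference of *Adgre1* turned to -0.161 and that of *Mrc1* to -0.0567 without the 5 *Alb*-rich mice, and to -0.032 and -0.125 with the adipocyte score as a covariate. With that covariate the female log2 fold changes of *C1qa*, *C1qb* and *C1qc* were 0.468, 0.396 and 0.45, and without the 5 mice they were 0.52, 0.423 and 0.471. *Cd68* had 0.505 with the covariate and 0.714 without the 5 mice, *Cd163* 0.601 and 0.845, *Csf1r* 0.0767 and 0.21, and *Lyz2* 0.2 and 0.16.

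**Figure D2:**
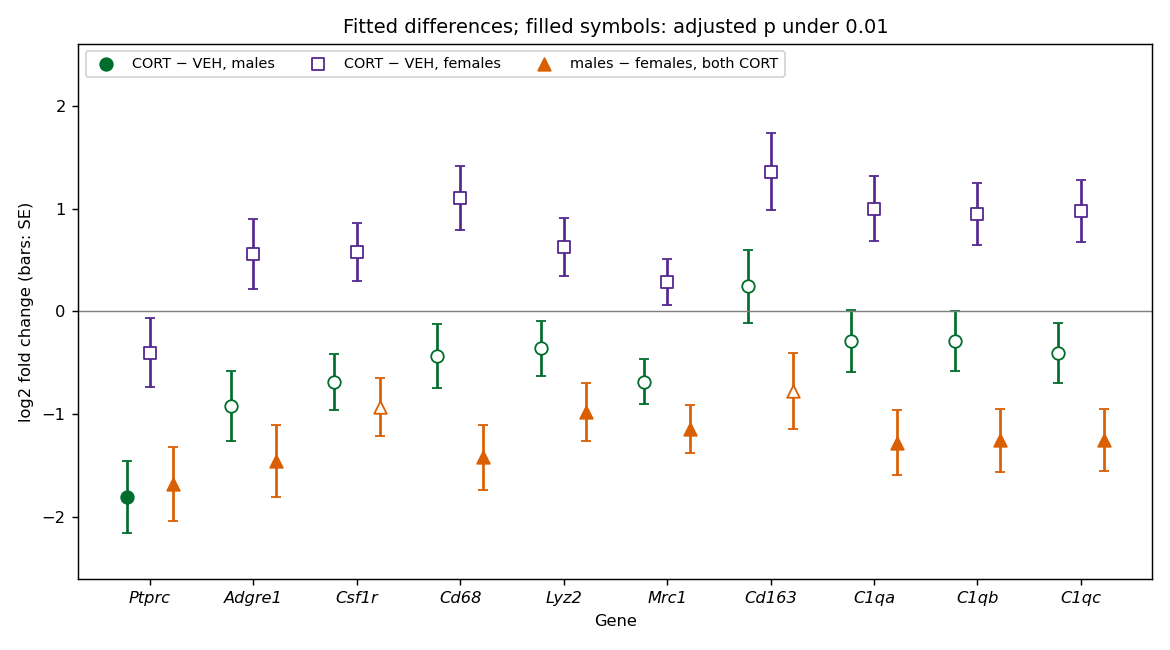
Fitted log2 fold changes of the 10 genes with standard errors, for corticosterone against vehicle in males (circles), the same in females (squares), and corticosterone-treated males against corticosterone-treated females (triangles). Filled symbols passed the adjusted p threshold of 0.01, which 1 male response, 0 female responses and 8 of the comparisons between the sexes did.

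Under corticosterone the sexes differed. Of the 10 genes, 8 were lower in corticosterone-treated males than in corticosterone-treated females, against 14% of all tested genes called lower and 23.3% called in either direction. *Ptprc* was 3.21-fold lower (log2 fold change -1.68, SE 0.36, adjusted p = 0.00127), *Adgre1* 2.75-fold lower (-1.46, SE 0.35, adjusted p = 0.00284), and *Cd68* 2.67-fold lower (-1.42, SE 0.32, adjusted p = 0.00178). *Mrc1* was 2.21-fold lower (-1.14, SE 0.23) with the smallest adjusted p of the set, 0.000822. The C1q chains were 2.42-fold (*C1qa*, adjusted p = 0.00352), 2.38-fold (*C1qb*, adjusted p = 0.00316) and 2.38-fold (*C1qc*, adjusted p = 0.00309) lower, and *Lyz2* 1.97-fold (adjusted p = 0.00945). *Csf1r* (log2 fold change -0.93, SE 0.29, adjusted p = 0.014) and *Cd163* (-0.77, SE 0.37, adjusted p = 0.103) did not pass, and all 10 had an unadjusted p under 0.05, as did 47.9% of all genes. For *Mrc1* and *C1qc* every corticosterone-treated male lay below every corticosterone-treated female, as 5.55% of tested genes did, and for *C1qc* the gap between M8 and F8, both 16 CPM when rounded, was far smaller than either group's spread. The median log2 fold change was -1.25, against -0.0293 for all genes.

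Markers of some other cell types were lower in the same comparison, where 14% of all tested genes were called lower. Of the fibroblast list 5 of 6 were called lower in corticosterone-treated males (*Col1a1* -2.49, *Col1a2* -1.99, *Col3a1* -2.81, *Lum* -1.49 and *Pdgfra* -0.56 on the log2 scale), and of the mast cell list 4 of 5 (*Cpa3* -1.96, *Kit* -2.65, *Cma1* -1.97 and *Mcpt4* -2.22). The 6 adipocyte markers were 5.03-fold (*Lep*) to 8.67-fold (*Cfd*) lower and none passed, with a median log2 difference of -2.97. The hepatocyte markers had a median of -0.037 and none passed. None passed either of the 6 endothelial markers (median -0.389) and the 6 muscle fiber markers (0.365). The 3 dendritic cell markers tested (-1.07) and the 1 neutrophil marker tested (0.295) did not pass. Of the 4 monocyte markers tested 2 were called lower (median -1.45). The part of these cells in the difference of the 10 genes was not tested.

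The count of 8 depended on few mice, and the count over all genes fell with it from 23.3%. Without F6 it was 3 (*Ptprc*, *Cd68* and *Mrc1*), with 15.4% of all genes called, and without F10 it was 3 (the same genes), with 14.4%. With M8 and F10 both left out it was 2 (*Ptprc* and *Mrc1*), with 10.6%. Without the 5 *Alb*-rich mice, which leaves 3 females and 4 males under corticosterone, it was 0 by edgeR, where 2.22% of all genes were called. There 6 of 10 had an unadjusted p under 0.05. The share of all genes was not computed for that fit and was 47.9% in the fit to all mice. The count of 6 can therefore not be read as a trait of the 10 genes. Without these mice the log2 differences ranged from -1.58 for *Ptprc* (adjusted p = 0.0426) to -0.226 for *Cd163* (adjusted p = 0.805). With the adipocyte score as a covariate the count was 3 (*Ptprc*, *Cd68* and *Mrc1*), with 13.5% of all genes called.

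Under vehicle the sexes were not called different for any of the 10 genes, where edgeR called 0, also at an unadjusted p under 0.05, and DESeq2 0, against 0.958% of all genes called by edgeR. The log2 differences between vehicle-treated males and females ran from -0.275 to 0.341, with adjusted p from 0.676 to 0.996. The interaction, the male response minus the female response, was negative for 10 of 10 genes, from -1.54 for *Cd68* to -0.97 for *Mrc1*, with a median of -1.28 against -0.0468 for all genes. None of the 10 passed the threshold of 0.01 in edgeR, against 0.69% of all genes called, and 5 had an adjusted p under 0.05, against 12.6%. All 10 had an unadjusted p under 0.05, as did 32.1% of all genes, and the smallest adjusted p were 0.0312 (*Cd68*), 0.0381 (*C1qc*) and 0.0408 (*Csf1r*). DESeq2 called 1, *Cd68*, and 6.87% of all genes. A difference between the male and female responses is therefore not shown at the threshold used for the other comparisons.

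Ratios between genes within a mouse remove what raises or lowers all of them together, and they are given as a description with no test, since the pairs were chosen after their values were seen. The ratio of *Cd163* to *Mrc1* was 0.847 ± 0.212 (range 0.488 to 1.08) in vehicle-treated males and 1.74 ± 0.307 (1.19 to 2.06) in corticosterone-treated males, so the groups did not overlap, and 7.23% of tested genes had a ratio to *Mrc1* that separated upwards in males. In females the ratio was 0.61 ± 0.185 (0.363 to 0.833) under vehicle and 1.7, 0.828, 1.72, 0.966 and 1.22 in corticosterone-treated F2, F4, F6, F8 and F10. Only F4 fell among the vehicle-treated females, and F8, in which both genes were lowest, did not. The ratio of *Ptprc* to *Adgre1* fell outside the vehicle range in all 5 corticosterone-treated females, with 0.398, 0.404, 0.346, 0.317 and 0.222 in the same order against 0.42 to 0.773 under vehicle, a separation downwards that 0.843% of tested genes had in their ratio to *Adgre1*. In males it was 0.532 ± 0.126 under vehicle and 0.272 ± 0.105 under corticosterone with overlapping ranges. The C1q chains kept nearly fixed proportions. *C1qb* to *C1qa* was 0.882 ± 0.0996 in vehicle-treated females, 0.816 ± 0.0461 in corticosterone-treated females, 0.85 ± 0.114 in vehicle-treated males and 0.851 ± 0.0971 in corticosterone-treated males.

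**Figure D3:**
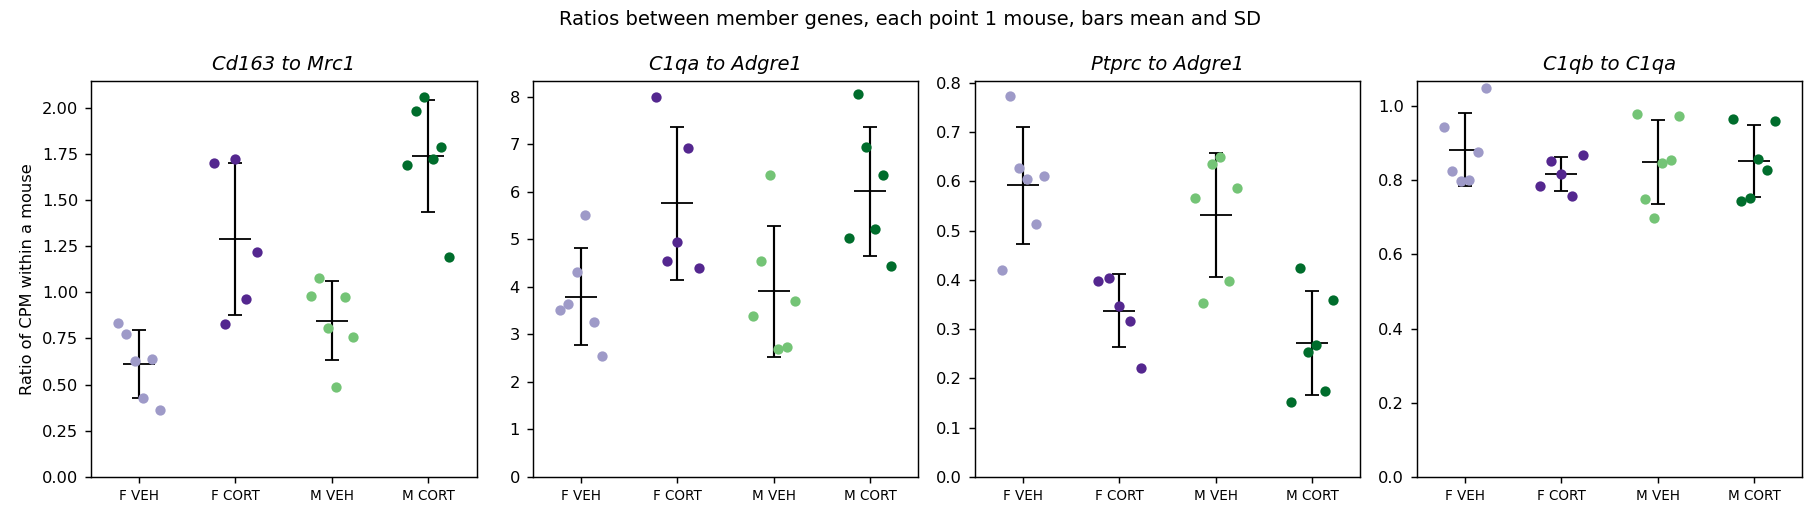
Ratios of CPM within each mouse (linear scale, each point 1 mouse, bars mean and SD) for *Cd163* to *Mrc1*, *C1qa* to *Adgre1*, *Ptprc* to *Adgre1* and *C1qb* to *C1qa*, in vehicle- and corticosterone-treated females and males. *Cd163* to *Mrc1* is higher in all corticosterone-treated males than in any vehicle-treated male, and *C1qb* to *C1qa* has group means between 0.816 and 0.882.

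Within groups the 10 genes varied together from mouse to mouse. After the group means were removed, the Pearson correlations of log2 CPM between pairs of the 10 genes over 23 mice had a median of 0.855, from 0.533 for *Ptprc* with *Cd163* to 0.986 for *C1qb* with *C1qc*. The points share library depth, and the mice differ in what else the muscle sample held, with adipocyte sums of 30.3 to 4150 CPM, so the values are descriptions. The same animals were at the ends for most genes. Among corticosterone-treated females F8 was lowest for 10 genes and F10 highest for 8, among vehicle-treated males M3 was highest for 7 and M7 lowest for 7, and among vehicle-treated females F3 was highest for 7. The genes most like the mean of the 3 C1q chains over all tested genes were the chemokines *Ccl6* (r = 0.975) and *Ccl9* (0.97), the IgG receptor *Fcgr3* (0.96), *Lyz2* (0.941), *Csf1r* (0.94), the folate receptor *Folr2* (0.934), the transglutaminase subunit *F13a1* (0.933), the inhibitory receptor *Pirb* (0.927), *Fxyd2* (0.927), a sodium pump regulator, and the membrane protein *Ms4a7* (0.914). The other members had r of 0.865 (*Cd163*), 0.864 (*Cd68*), 0.85 (*Adgre1*), 0.843 (*Mrc1*) and 0.672 (*Ptprc*). With a prior count of 5 in place of 1, 9 of these 10 genes were again among the nearest 10, and without M8 and F10, 8 were.

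Adipocyte transcripts, which mark fat within or beside the dissected muscle, moved with C1q in part. The summed CPM of the 3 C1q chains was 85.2, 83.1, 121, 51.9 and 170 in corticosterone-treated females F2, F4, F6, F8 and F10, and that of the 6 adipocyte markers was 2080, 551, 4150, 36.7 and 1810. Mouse F8 was lowest for both, while F10 was highest for C1q and not for the adipocyte markers. In the vehicle groups the same mouse was highest for both sums, F5 in females and M3 in males, and the same mouse was lowest, F11 and M7. Corticosterone-treated males ranged from 34.7 to 52.9 CPM of C1q, and there the order differed at both ends. M8 was highest for C1q and M12 for the adipocyte markers, and M2 was lowest for C1q and M10 for the adipocyte markers. Of the adipocyte list corticosterone raised *Lep*, the leptin gene, in females (log2 fold change 6.79, adjusted p = 0.000284) and called no gene in males.

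**Figure D4:**
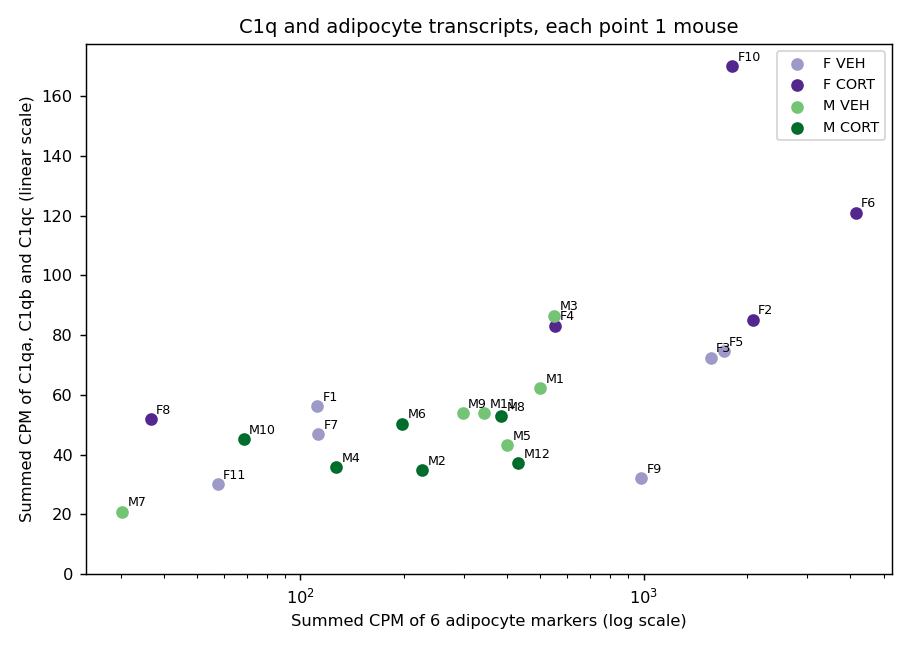
Summed CPM of *C1qa*, *C1qb* and *C1qc* (linear axis) against the summed CPM of 6 adipocyte markers (log axis), each point 1 of 23 mice, coloured by group. Corticosterone-treated females span 36.7 to 4150 CPM of adipocyte markers and 51.9 to 170 CPM of C1q, the widest range of the 4 groups on both axes.

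Beyond the 10 genes, 62 of 79 other macrophage and C1 genes were tested. In males 2 rose and 17 fell, against 13.2% of all genes called higher and 13.1% lower, with a median log2 fold change of -0.51. In females 9 rose and 2 fell, against 7.4% called higher and 6% lower, with a median of 0.512. Under corticosterone 26 of the 62 were called lower in males than in females and none higher. The shares of all genes were 14% and 9.31%, and the median of the 62 was -1.01. With the adipocyte score as a covariate 1 was lower and 0 higher, against 7.21% and 6.25% (median -0.603). With M8 and F10 left out 5 were lower and 0 higher, against 5.88% and 4.71% (median -0.87). With the covariate 4 rose and 3 fell in females, against 2.76% and 2.94% (median 0.137). In males 3 rose and 22 fell with it, against 14% and 14.9%. Without the 5 *Alb*-rich mice 1 rose and 11 fell in males, against 10.1% of all genes called higher and 8.48% lower. In females 1 rose and 0 fell, against 1.69% higher and 1.83% lower, so the female count was near that of all genes. Between the corticosterone-treated sexes 0 were called, where edgeR called 1.69% of all genes higher and 0.536% lower. At an unadjusted p under 0.05 there were 13 of the 62 in females and 19 between the sexes. The shares of all genes were not computed for that fit and were 38.6% and 47.9% in the fit to all mice. These 2 counts can therefore not be read as a trait of the list. *Gas6*, a bridging protein by which phagocytes bind dying cells and which other cells also make, rose in both sexes. It averaged 107 ± 10.3 CPM in vehicle-treated and 220 ± 29.3 CPM in corticosterone-treated males (log2 fold change 1.05, adjusted p = 3.84e-06), and 121 ± 19.7 against 198 ± 43.6 CPM in females (0.70, adjusted p = 0.00096). *Ms4a6c* rose as well, by 1.05 in males (adjusted p = 0.00942) and 1.92 in females (adjusted p = 0.000212). The largest fitted rises of resident macrophage genes in females were those of *Vsig4* and *Lyve1*. *Vsig4*, a complement receptor, had a log2 fold change of 3.57 (adjusted p = 0.000406). Its level was low, 0.143 ± 0.0972 CPM under vehicle and 1.76 ± 1.3 CPM under corticosterone. It passed the filter only through corticosterone-treated mice, so its being tested depended on their higher values. *Lyve1*, a hyaluronan receptor also found on lymphatic endothelium, rose from 6.28 ± 3.19 to 29.3 ± 13.3 CPM (2.22, adjusted p = 0.000618). In males *Vsig4* (1.42, adjusted p = 0.0546) and *Lyve1* (1.13, adjusted p = 0.0267) did not pass. Without the 5 *Alb*-rich mice the female values were 2.72 for *Vsig4* (adjusted p = 0.00735), 1.69 for *Lyve1* (adjusted p = 0.0243), 1.41 for *Ms4a6c* (adjusted p = 0.0148) and 0.70 for *Gas6* (adjusted p = 0.0186).

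*Ccr2*, the chemokine receptor that brings monocytes into tissue, fell in both sexes. It averaged 4.61 ± 1.36 CPM in vehicle-treated and 0.461 ± 0.253 CPM in corticosterone-treated males (log2 fold change -3.30, adjusted p = 7.15e-06), and 4.57 ± 1.37 against 1.3 ± 1.01 CPM in females (-1.81, adjusted p = 0.00372). All 6 corticosterone-treated males and all 5 corticosterone-treated females were below the vehicle mean of their sex. The interferon regulatory factor *Irf5* fell in males by 2.38 on the log2 scale (adjusted p = 3.42e-05), from 7.77 ± 4.87 to 1.5 ± 0.544 CPM. In females it averaged 3.26 ± 1 CPM under vehicle and 2.78 ± 0.79 CPM under corticosterone (-0.23, adjusted p = 0.68). *Irf8*, a factor of monocyte and dendritic cell development, fell in females, with a log2 fold change of -0.56 (adjusted p = 0.00617). Its male value was also negative and did not pass (-0.31, adjusted p = 0.0681). *Coro1a*, an actin-binding protein of leukocytes, fell in males from 5.21 ± 1.48 to 1.43 ± 0.64 CPM (-1.86, adjusted p = 5.77e-05). In females *Coro1a* averaged 5.54 ± 1.91 CPM under vehicle and 2.92 ± 1.07 CPM under corticosterone, short of the threshold (-0.92, adjusted p = 0.0291). *Cbr2*, a carbonyl reductase, was the only one of the 62 with an interaction past the threshold (-2.30, adjusted p = 0.00385). It averaged 46 ± 10.3 CPM in vehicle-treated and 13.2 ± 4.09 CPM in corticosterone-treated males (-1.80, adjusted p = 6.03e-06), and 18.2 ± 5.34 and 25.7 ± 8.81 CPM in females (adjusted p = 0.133), and it already differed between the sexes under vehicle (1.34, adjusted p = 0.00175). Without the 5 *Alb*-rich mice the interaction of *Cbr2* was -1.76 (adjusted p = 0.0524), and the female values of *Ccr2* and *Irf8* were -1.88 (adjusted p = 0.0413) and -0.63 (adjusted p = 0.0323).

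By role, and against 13.1% of all genes called lower in males and 7.4% called higher in females, myeloid signalling genes held 7 of 15 tested that fell in males, and in females none of the 15 passed. Phagocytic and Fc receptors held 1 of 13 that fell in males (*Clec7a*, a receptor for fungal glucans) and 4 that rose in females (*Mertk*, *Msr1*, *Tlr4* and *Tlr7*). Resident macrophage genes held 2 of 15 that rose and 3 that fell in males, and 5 that rose in females (*Lyve1*, *F13a1*, *Ms4a6c*, *Vsig4* and *Gas6*). Of these *Vsig4* passed the filter only through corticosterone-treated mice. Of the 4 growth factors and receptors tested beside *Csf1r*, *Csf1* and *Csf2ra* fell in males and none passed in females. The proteases that complete the C1 complex, *C1ra* and *C1s1*, both fell in males, from 19.1 ± 4.02 to 10.1 ± 3.06 CPM (log2 fold change -0.92, adjusted p = 0.00318) and from 54.8 ± 7.82 to 33.9 ± 6.25 CPM (-0.69, adjusted p = 0.00468). In females they had adjusted p of 0.662 and 0.643. The C1 inhibitor *Serping1* did not pass in either sex, with a log2 fold change of -0.51 in males (adjusted p = 0.0405) and 0.63 in females (adjusted p = 0.0248).

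**Figure D5:**
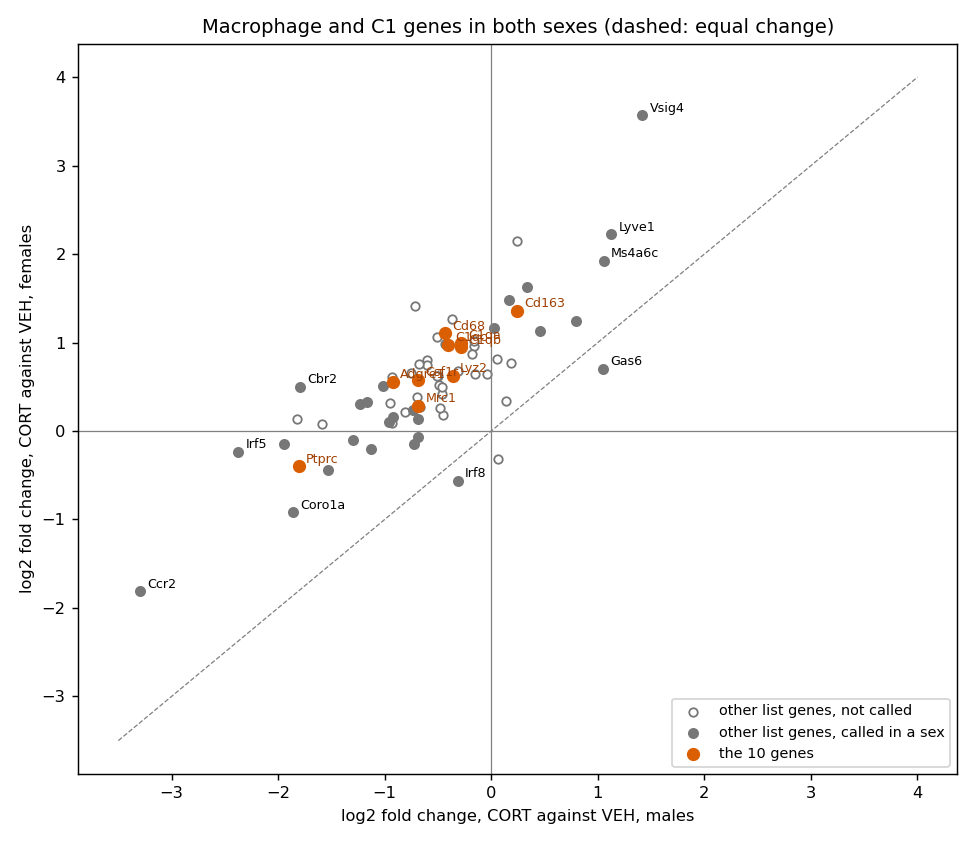
Log2 fold change of corticosterone against vehicle in males (horizontal) and in females (vertical) for the 10 genes (orange) and the 62 other macrophage and C1 genes tested (grey, filled where called in a sex). The dashed line marks equal change, and all 10 genes lie above it, as their negative interactions of -1.54 to -0.97 say.

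Markers of other leukocytes also moved. *S100a8*, a neutrophil alarmin, rose in both sexes (log2 fold change 2.22 in males, adjusted p = 0.00531, and 2.91 in females, adjusted p = 0.00367). It was the only gene of the neutrophil list over the filter, 1 of 7, so the others were not tested. Under corticosterone it averaged 1.16 CPM in males and 0.948 CPM in females, against 0.248 and 0.123 CPM under vehicle. It passed the filter only through corticosterone-treated mice, so its being tested depended on their higher values. The sum of the list ranged from 0.391 to 8.54 CPM, with *Csf3r* and *S100a9* highest at a mean of 0.613 CPM each. *Chil3*, a chitinase-like protein of monocytes and some macrophages, rose by 5.42 in males (adjusted p = 7.42e-08) and 4.68 in females (adjusted p = 1.01e-06). Its means under vehicle were near zero, 0.0482 CPM in males and 0.105 CPM in females, against 2.29 and 2.87 CPM under corticosterone. *Chil3* too passed the filter only through corticosterone-treated mice, and the size of its fold rests on very few reads under vehicle. *Cd209a*, a lectin of monocyte-derived dendritic cells, fell by 4.45 in males (adjusted p = 6.88e-08) and 2.95 in females (adjusted p = 1.92e-05). Of the dendritic cell list 3 of 6 genes were tested. Of these *Itgae* had a higher mean in corticosterone-treated females (1.47 ± 0.745 CPM) than in vehicle-treated females (0.388 ± 0.385 CPM), and it was not called in either sex. The lymphocyte list was too low to test, with 0 of 11 genes over the filter and sums of 0.162 to 4.53 CPM, led by the B cell genes *Cd79b* and *Cd79a*, and its sum had a median of 1.58 CPM in vehicle-treated and 0.383 CPM in corticosterone-treated males. *Mcpt4*, a mast cell protease, fell in males (-2.0, adjusted p = 0.00217), while the most abundant mast cell marker *Tpsb2* did not pass in either sex. *Vcan*, the proteoglycan that leads the monocyte list with a mean of 8.24 CPM, fell in males (-0.93, adjusted p = 0.00199) and had 0.57 in females (adjusted p = 0.065), and *Zbtb46*, the most abundant dendritic cell marker, passed in neither sex (adjusted p = 0.0581 and 0.999). The part of these cells in the *Ptprc* difference was not tested.

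Of the 6 fibroblast markers 4 fell in males (*Col1a1*, *Col1a2*, *Col3a1* and *Lum*), against 13.1% of all genes called lower. In females 2 fell (*Col3a1* and *Lum*), against 6%. The most abundant one, *Dcn*, did not pass in either sex (adjusted p = 0.0273 and 0.207). Its mean was lower under corticosterone in males (432 and 325 CPM) and higher in females (344 and 413 CPM). The female mean of *Pdgfra* was also higher (31.8 and 35.2 CPM) and did not pass. The fibroblast sum was 905 to 1370 CPM in vehicle-treated and 329 to 494 CPM in corticosterone-treated males, and 785 to 1750 against 523 to 1080 CPM in females. Among endothelial markers *Tek* fell in males (-0.52, adjusted p = 0.00616), and the more abundant *Pecam1* (mean 96.7 CPM over all mice) and *Cdh5* (79.6 CPM) did not pass in either sex. The hepatocyte markers did not pass in either sex, where *Alb* had a log2 fold change of 1.13 in males (adjusted p = 0.453) and 2.57 in females (adjusted p = 0.128), and *Ttr*, the next most abundant, 1.02 and 2.27. Of the adipocyte markers the most abundant, *Cfd*, had -2.39 in males (adjusted p = 0.0392) and -0.77 in females (adjusted p = 0.566), and *Cidec* 0.26 (adjusted p = 0.838) and 2.69 (adjusted p = 0.0415). *Nr3c1*, the gene of the glucocorticoid receptor, fell in females (log2 fold change -0.54, SE 0.13, adjusted p = 0.00442), while its male value was -0.07 (adjusted p = 0.688) and its interaction had an adjusted p of 0.0786.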

How the data were processed

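The authors deposited raw gene counts (read pairs per gene, 23 mice). They aligned stranded 100 bp read pairs to mm10 with STAR 2.7.3a and counted uniquely assigned pairs with HTSeq 0.12.4 in reverse-stranded mode. Between 10.7% and 15.3% of read pairs per mouse fell on no gene and stayed out of library sizes. Genes with over 20 median-of-ratios counts in at least 4 mice of a group were tested (13049). Counts were scaled by TMM and fitted with edgeR 4.0.16 (R 4.3.3) quasi-likelihood tests with 1 mean per group over all mice, Benjamini-Hochberg adjustment over all tested genes and a threshold of 0.01. DESeq2 1.42.0, limma 3.58.1 voom, other filters and scalings, and left-out mice were alternatives. The scripts were tested on simulated data. Positions and transcript lengths are from GENCODE M21.

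The 10 genes, the lists and the tests were chosen with earlier results of these data known. Named beside the 10 genes are, per sex, the 4 macrophage or C1 genes with the smallest adjusted p that rose and the 4 that fell, the 10 genes most like C1q, the 2 most abundant and all called markers of other cell types, and *Nr3c1*. Genes named outside this rule (*Lyz1*, *Serping1*, *C1ra*, *C1s1*, *Itgae*, *Pdgfra*, markers in the comparison of corticosterone-treated sexes and genes listed by role) were chosen after their values were seen. Correlations used log2 CPM with a prior count of 1.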

Additional observations from a re-analysis of the deposited data

How the results depend on the processing

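The male fall of *Ptprc* passed the threshold under all 35 alternatives run for it, with log2 fold changes from -2.09 to -1.68. The other counts moved, and so did the share of all genes called, given in brackets. In males the number of the 10 genes called was 2 with DESeq2 (30.6%). It was 3 with the adipocyte score as a covariate (28.9%) and 3 at a threshold of 0.05 (39.8%). In females it was 4 with DESeq2 (18.8%), 2 with limma-voom (18.8%) and 5 at a threshold of 0.05 (26.7%). For the interaction it was 1 with DESeq2 (6.87%) and 5 at 0.05 (12.6%). For corticosterone-treated males against females it was 2 without M8 and F10 (10.6%), 3 with the adipocyte covariate (13.5%) and 0 without the 5 *Alb*-rich mice (2.22%). It was between 6 and 9 under the other scalings, filters, tools and covariate (7.4% to 29.5%), the replicate block aside. Leaving out each mouse in turn gave 1 to 3 in males, with 3 without M7 (23.4%) and 2 without F8 (27.9%). It gave 0 to 5 in females, with 5 without F8 (18.1%), and 0 to 1 for the interaction, with 1 without F8 (6.84%). Between corticosterone-treated sexes it gave 3 to 9 (14.4% to 28.7%). The adipocyte and M8 with F10 alternatives were planned, and the *Alb* limit of 500 CPM, the hepatocyte covariate and the threshold of 0.05 were chosen after seeing the data. The cause of these shifts was not tested.

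Mouse numbers are shared by the sexes, and the main fit did not pair the mice by them. Correlations of deviations between same-numbered mice ran from -0.377 to 0.477 over 11 pairs, 7 of them over 0.1. Of 11 females 4 were closest to their own number. These values cannot tell whether the number pairs the mice. With the number as a replicate block the count between corticosterone-treated sexes was 3, with 17.3% of all genes called. That of the interaction was 0, with 0.743%.

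Some signs turned. Between vehicle-treated sexes *Adgre1* was -0.00253 with the replicate block, -0.0779 with the adipocyte covariate and -0.0997 without the *Alb*-rich mice, and with the adipocyte covariate *Lyz2* was -0.0641 and *C1qa* -0.103. In females, where the reported log2 fold changes were 0.56 for *Adgre1* and 0.29 for *Mrc1*, *Adgre1* was -0.032 and *Mrc1* -0.125 with the adipocyte covariate, and -0.161 and -0.0567 without the *Alb*-rich mice. With 1 mouse left out the vehicle comparison ran from -0.0953 to 0.162 for *Adgre1*, -0.198 to 0.177 for *C1qa*, -0.166 to 0.147 for *C1qb*, -0.0828 to 0.294 for *C1qc*, -0.151 to 0.312 for *Cd68*, -0.106 to 0.14 for *Lyz2* and -0.389 to 0.00304 for *Ptprc*. *Ptprc* rests on as few as 7 read pairs in a mouse, the lowest depth of the 10 genes.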
